A study of Mus musculus with 6 samples.

Results

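The proteasome subunit and assembly genes were taken from the count table by name. A row was a member when its Ensembl ID mapped in GENCODE M21 to a protein-coding symbol that starts with Psm followed by a letter from a to g. Of 55487 rows, 50 met that rule, and 49 reached 0.5 CPM (counts scaled to a common library size) in at least 3 of the 6 libraries. All 49 did so in all 6 libraries and passed the filter on low counts before testing. The lowest of them was Psmg3, at 1.60 to 4.40 CPM of the library total, and the 1 member left out, the thymus-specific Psmb11, had 0 counts in every library. Among the 49 are 46 genes of the proteasome, its activators and its assembly, the testis-specific Psma8, and 2 genes that share only the name pattern or the sequence. These are Psmc3ip, a cofactor of meiotic recombination that is not a proteasome subunit, and Psme2b, a near-identical copy of Psme2.

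The libraries came from RAW264.7, a mouse macrophage line that was transformed by a leukaemia virus and can form osteoclasts. In 3 libraries the cells are labelled with the genotype RhoA knockout and titled SMART-Cas9, and in 3 control libraries they are labelled wt. The cells of all 6 libraries carry the treatment label RANKL/M-CSF, a pair of cytokines used to form osteoclasts, although the design text calls the control line untreated. No sample was given Cas9 without an edit of RhoA, whose product is a GTPase switch of the actin skeleton, and the labels do not say whether the edited cells were 1 clone or grown as separate cultures. The p-values therefore cover only how far these 6 samples spread, and that spread may be technical.

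Proteasomes degrade proteins that carry ubiquitin chains. The core particle stacks rings of alpha subunits, which form the gate, around rings of beta subunits, a few of which cut proteins. A cap of ATPases and other subunits binds ubiquitin, removes it and unfolds the substrate. In immune cells, and after interferon, the inducible subunits Psmb8, Psmb9 and Psmb10 replace the cutting subunits Psmb5, Psmb6 and Psmb7, and the PA28 activator, made of Psme1 and Psme2, can take the place of the cap. The resulting immunoproteasome favours peptides for display on MHC class I, and macrophages carry much of it.

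Library totals ran from 71777994 to 81830819 counts in the libraries labelled RhoA knockout and from 60198645 to 79918899 in the control libraries. Rhoa (ENSMUSG00000007815.13, chromosome 9, 108306129 to 108337934, GRCm38) had 34.2, 29.9 and 31.5 TMM-scaled CPM under the knockout label, against 21.4, 25.8 and 24.4 CPM in control libraries. It was thus higher, not lower, under the knockout label (log2 fold change 0.41 ± 0.12 SE, edgeR adjusted p = 0.0136). That call was lost without the first replicate of either group, at an adjusted p of 0.0741 without the one labelled RhoA knockout and 0.0645 without the control. Whole-gene counts do not show whether the transcripts were edited, so the group is named by its label throughout. Replicate 3 of each group stood apart, with a chi-square per degree of freedom of 80.8 to 100.9 against the others labelled RhoA knockout and 89 to 99.9 against the other controls, where replicates 1 and 2 gave 26.3 and 20.7. The 10 most abundant genes held 43.1 to 46.8% of counts in libraries labelled RhoA knockout and 59.6 to 61.0% in controls. All 6 macrophage markers were present, with a summed level, mostly Lyz2, of 80518 to 113160 CPM under the knockout label and 17360 to 19217 CPM in controls. By gene, Lyz2 (2.39), Cd68 (1.30) and Csf1r (1.17) were higher and Itgam (-2.01), Adgre1 (-0.51) and Ptprc (-0.39) lower, though Ptprc was higher (0.32) with an offset for exon length. The part of these markers in the results was not tested. Markers of fibroblasts, T cells and B cells had 0 counts in all libraries, and those of epithelial, endothelial and erythroid cells summed to at most 1.44 CPM in any library.

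Most proteasome genes were higher in the libraries labelled RhoA knockout. Of the 49 genes, 26 were higher and 6 lower at an edgeR adjusted p under 0.05, and 17 were not called. The comparison called many genes, so these counts are read against 12930 genes tested, of which 21.0% were called higher, 22.3% lower and 43.2% in either direction. The members' median log2 fold change was 0.47, beside -0.03 over all genes tested. In 27 of the 49 all 3 libraries labelled RhoA knockout lay above all 3 controls, and in 8 all lay below, where 27.5% and 28.3% of all tested genes did so. The number of called members differed by role, from 13 of 17 cap subunits higher to 3 of 10 among the assembly factors, other activators and inhibitor. In bulk RNA, more cells with a transcript and more transcript per cell cannot be told apart.

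**Figure D1:**
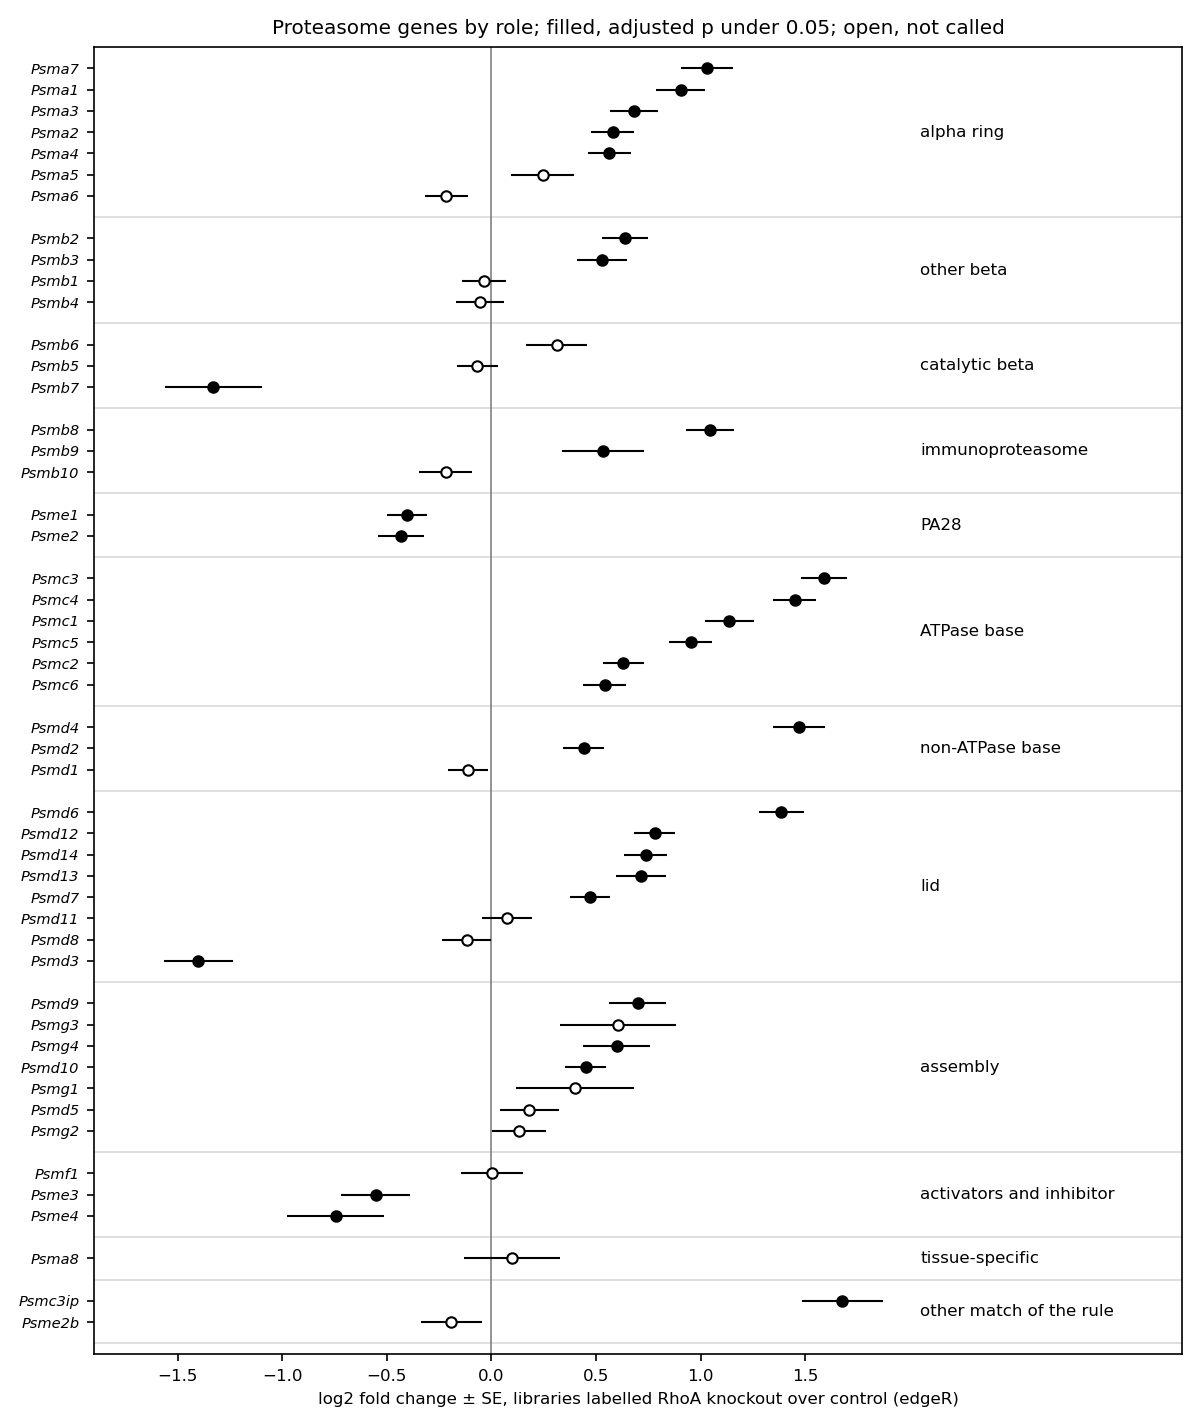
Each point is the log2 fold change (x axis, libraries labelled RhoA knockout over control, edgeR) of 1 reported gene with its standard error as a bar, grouped by role down the y axis; filled points passed an adjusted p of 0.05. All 6 ATPases lie right of 0, both PA28 genes lie left of it, and Psmb7 and Psmd3 lie furthest left.

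Fold changes in these libraries varied with exon length, the union of a gene's annotated exons, and the members were shorter than most tested genes by their median. With the tested genes in 5 bins of exon length, short to long, the median log2 fold change was 0.32, 0.26, 0.04, -0.19 and -0.47. The members' median exon length was 2800 bp, against 3856 bp over all tested genes. With an offset that removes this trend (medians of 0.01 to 0.04 in every bin), 2721 of 12930 genes tested were higher and 2465 lower. Of the members, 24 were then higher and 10 lower, with a median of 0.31. Of the calls, 22 higher and 5 lower were the same in both fits and 0 turned round. Another 12 differed: Psma6, Psmb4, Psmb5, Psmb10 and Psme2b became lower, Psmd5 and Psmd11 became higher, and Psmb9, Psmd7, Psmd10, Psmg4 and Psme4 were no longer called.

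**Figure D2:**
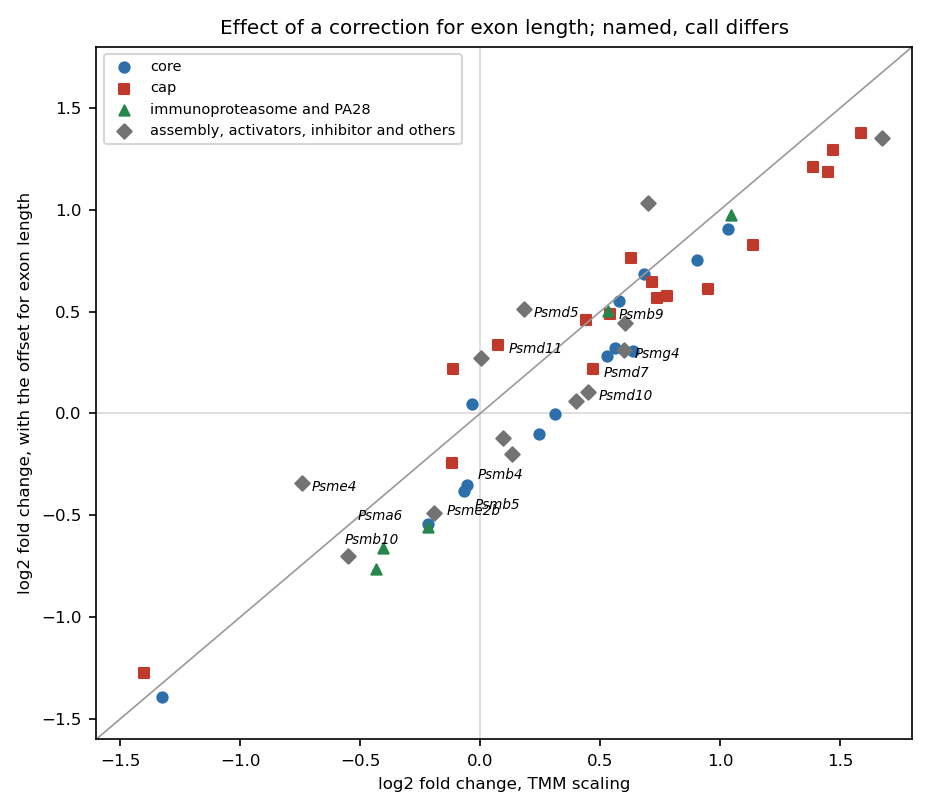
Each point is 1 of the 49 reported genes, with its log2 fold change (libraries labelled RhoA knockout over control) under TMM scaling on the x axis and with the offset for exon length on the y axis; the line marks equal values. Genes whose call differed are named, and no called gene changes sign.

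Per kb of exon, summed levels separated the groups more in the cap than in the core. Summed over 17 cap subunits, the level was 857, 871 and 981 CPM per kb in libraries labelled RhoA knockout, against 465, 450.4 and 486 CPM per kb in controls. Within the cap the 6 ATPases separated the groups more than the lid. The ATPases summed to 489, 496 and 565 CPM per kb under the knockout label, against 222, 213 and 221 in controls. The 8 lid subunits summed to 238.5, 240.2 and 261.9 CPM per kb under the knockout label, against 178.8, 174.7 and 194.9 in controls. Psmb6 alone makes up much of the core's sum, so it was left out there. Over the other 13 core subunits the level was 1358, 1297 and 1552 CPM per kb under the knockout label, against 1105, 1044 and 1067 CPM per kb in controls. The ratio of the cap sum to this core sum was 0.631, 0.671 and 0.632 in libraries labelled RhoA knockout, against 0.421, 0.431 and 0.456 in controls. The ratios of the groups did not overlap. No test was run on this ratio, and an exact permutation test of 3 against 3 libraries cannot give less than 0.1.

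**Figure D3:**
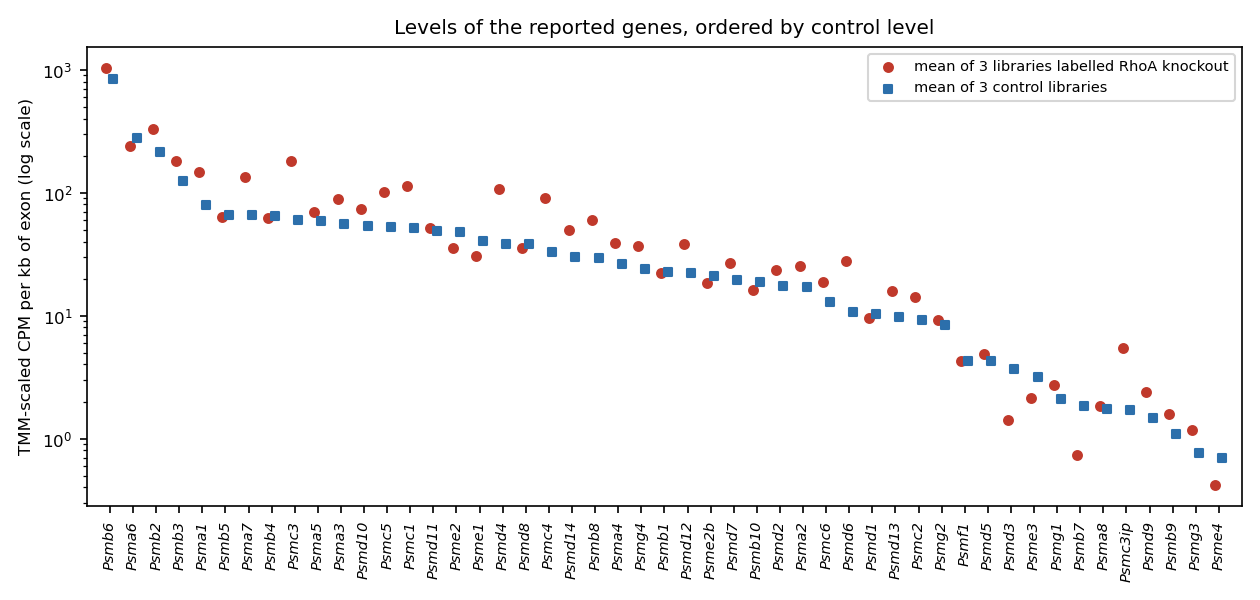
Points give the mean level (TMM-scaled CPM per kb of exon, log scale) of each reported gene in the 3 libraries labelled RhoA knockout (circles) and the 3 control libraries (squares), ordered by the control level. Psmb6 is highest in both groups, at 1033 and 832 CPM per kb, and Psme4 lowest, at 0.42 and 0.70.

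In the core particle, 7 of 14 subunits were higher, 1 was lower and 6 were not called, with a median log2 fold change of 0.42. Of all genes tested, 21.0% were called higher and 22.3% lower. With the offset for exon length the core median was 0.16, and 4 subunits were lower (Psma6, Psmb4, Psmb5 and Psmb7). In that fit 2465 of 12930 genes tested were lower. The same 7 were higher in both fits. The alpha ring accounted for 5 of the 7: Psma7 (1.03), Psma1 (0.90), Psma3 (0.68), Psma2 (0.58) and Psma4 (0.56). The largest of these, Psma7, had 402, 364 and 461 CPM in libraries labelled RhoA knockout, against 222, 184 and 194 CPM in controls, without overlap (1.03 ± 0.12 SE, edgeR adjusted p = 3.46e-05). Psma5, at 0.24, was not called. The alpha subunit with the most RNA per kb in both groups was Psma6, with 296, 278 and 311 CPM under the knockout label, against 352, 341 and 334 CPM in controls. Its libraries did not overlap, yet it missed the threshold (-0.22 ± 0.10 SE, adjusted p = 0.112). Psma3 and Psma5 have processed pseudogenes of 100% and 97.5% identity, Gm13835 and Gm12989, which held 44.9 to 50.01% and 8.0 to 11.3% of their counts, so their levels are uncertain. With the copies' counts added, the log2 fold changes were 0.66 and 0.26, with the same calls.

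Among the beta subunits that do not cut proteins, Psmb2 (0.64) and Psmb3 (0.53) were higher, and Psmb1 (-0.04) and Psmb4 (-0.05) were not called. Psmb2, the most abundant of them per kb, had 385, 372 and 438 CPM in libraries labelled RhoA knockout, against 268, 254 and 247 CPM in controls (0.64 ± 0.11 SE, edgeR adjusted p = 5.4e-04). Psmb4 had 113, 115 and 136 CPM under the knockout label, against 129, 112 and 137 CPM in controls, and the groups overlapped (adjusted p = 0.741).

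The 3 constitutive cutting subunits did not move together. Psmb5, which cuts after hydrophobic residues, had 57.7, 53.8 and 58.9 CPM in libraries labelled RhoA knockout, against 61.9, 58.3 and 58.4 CPM in controls. The groups overlapped (-0.07 ± 0.10 SE, edgeR adjusted p = 0.612). Its processed pseudogene Gm3375, 98.9% identical, held 55.0 to 84.3% of its count, and with those counts added the log2 fold change was 0.08. Psmb6, which cuts after acidic residues and had the highest level per kb of all members, had 1734, 1826 and 2240 CPM in libraries labelled RhoA knockout, against 1534, 1344 and 1796 CPM in controls. Its groups overlapped at 1 control, replicate 3, and it was not called (0.31 ± 0.15 SE, edgeR adjusted p = 0.107). Over the alternatives the adjusted p ran from 0.00163 by library totals to 0.996 with the offset for exon length (0.00 on the log2 scale). It was 0.0323 without control replicate 3, 0.395 without control replicate 2 (0.19) and 0.0426 by DESeq2.

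Psmb7, which cuts after basic residues, fell (ENSMUSG00000026750.6, chromosome 2, 38588036 to 38644087). It had 203, 269 and 159 counts, or 2.47, 3.01 and 2.09 CPM, in libraries labelled RhoA knockout, against 465, 323 and 442 counts, or 6.03, 5.52 and 7.50 CPM, in controls. The groups did not overlap (-1.33 ± 0.23 SE, edgeR adjusted p = 6.17e-04), and the call held in all 18 alternative settings. Its level is far below that of the partners it is built with: 0.74 CPM per kb under the knockout label and 1.86 in controls, where the other 13 core subunits had 22.0 to 1033 and 17.1 to 832 CPM per kb. Psmb7 shares 405 bp of exon with Nek6 on the opposite strand, whose count was 502 to 2066% of its own. Whether reads were counted by strand is not given in the sources used here, and the part of this overlap in the low level was not tested.

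The 19S cap, which feeds substrates to the core, was mostly higher. Of its 17 subunits 13 were higher and 1 lower, where 21.0% and 22.3% of all genes tested were so called. The other 3 were not called, and the median log2 fold change of the 17 was 0.71. With the offset for exon length 13 cap subunits were higher and 1 lower, with a median of 0.58. In that fit Psmd7 lost its call and Psmd11 gained one. All 6 ATPases that form the cap's motor ring were higher, from Psmc6 (0.54) and Psmc2 (0.63) through Psmc5 (0.95) and Psmc1 (1.14) to Psmc4 (1.45) and Psmc3 (1.59). The largest change was that of Psmc3 (ENSMUSG00000002102.15, chromosome 2, 91054009 to 91066369), with 442, 452 and 506 CPM in libraries labelled RhoA knockout, against 158, 149 and 159 CPM in controls. That was 3.01-fold, and the groups lay far apart (1.59 ± 0.11 SE, edgeR adjusted p = 4.38e-07). The smallest was that of Psmc6, with 70.2, 66.6 and 61.2 CPM under the knockout label, against 45.3, 43.2 and 47.5 CPM in controls, also without overlap (0.54 ± 0.10 SE, adjusted p = 0.0011). The 6 together summed to 489, 496 and 565 CPM per kb in libraries labelled RhoA knockout, against 222, 213 and 221 CPM per kb in controls. All 6 calls held with the offset for exon length, where the median was 0.80.

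**Figure D4:**
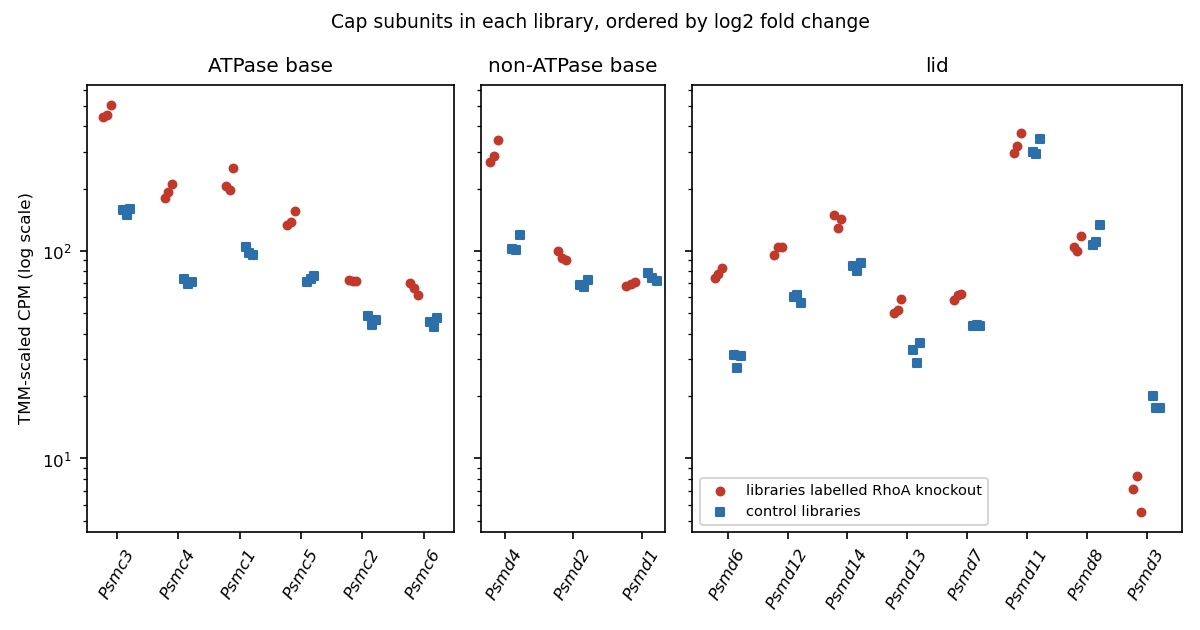
Each point is the TMM-scaled CPM (log scale) of a cap subunit in 1 library, with the 3 libraries labelled RhoA knockout (circles) left of the 3 controls (squares) for each gene. In all 6 ATPases the circles lie above the squares, while Psmd11 and Psmd8 overlap and Psmd3 lies below.

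Of the 3 base subunits that are not ATPases, the ubiquitin receptor Psmd4 was higher, with 267, 287 and 342 CPM in libraries labelled RhoA knockout, against 103, 101 and 120 CPM in controls (1.47 ± 0.13 SE, edgeR adjusted p = 2.24e-06). The scaffold Psmd2 was higher as well (0.44). The other scaffold, Psmd1, had 67.5, 69.2 and 70.6 CPM under the knockout label, against 78.1, 74.5 and 71.7 CPM in controls. Its groups did not overlap, but the difference was small and not called (-0.11 ± 0.10 SE, adjusted p = 0.372).

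The lid removes ubiquitin chains from bound substrates. Of its 8 subunits 5 were higher, where 21.0% of all genes tested were so called. These 5 were Psmd6 (1.39), Psmd12 (0.78), the deubiquitinase Psmd14 (0.74), Psmd13 (0.71) and the partner of Psmd14, Psmd7 (0.47). Psmd13 shares 342 bp of exon with Sirt3 on the opposite strand, whose count was 6.07 to 11.7% of its own. Psmd6 had 74.2, 77.8 and 83.2 CPM in libraries labelled RhoA knockout, against 31.5, 27.2 and 31.2 CPM in controls (1.39 ± 0.11 SE, edgeR adjusted p = 1.2e-06). Psmd11, with the highest level per kb of the lid, had 298, 321 and 370.2 CPM under the knockout label, against 299, 292 and 348 CPM in controls. Its groups overlapped (0.07 ± 0.12 SE, adjusted p = 0.659), as did those of Psmd8 (-0.12). With the offset for exon length Psmd11 was higher (0.34, edgeR adjusted p = 0.0463) and Psmd7 was not called (0.22, 0.0735).

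Psmd3, a lid subunit, fell (ENSMUSG00000017221.14, chromosome 11, 98682554 to 98695979). It had 7.15, 8.20 and 5.55 CPM in libraries labelled RhoA knockout, against 20.0, 17.6 and 17.6 CPM in controls. Every library labelled RhoA knockout was well below every control (-1.40 ± 0.17 SE, edgeR adjusted p = 3.06e-05), and the call held in all 18 settings. Its level was 1.40 CPM per kb under the knockout label and 3.70 in controls, where the other 7 lid subunits had 15.9 to 51.6 and 9.67 to 49.0 CPM per kb. Psmb7 and Psmd3, the members of core and cap that fell, were thus also those with the lowest level per kb in their particle.

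The inducible subunits of the immunoproteasome also differed among themselves: Psmb8 was clearly higher, the call of Psmb9 depended on the settings, and Psmb10 was not called. Psmb8 lies on chromosome 17 (34197721 to 34201454, plus strand, ENSMUSG00000024338.15) between Tap1 and Tap2, the genes of the pump that carries peptides to MHC class I. Psmb9 (34181987 to 34187764, minus strand) lies next to Tap1 and is transcribed away from it. The promoter of Psmb9 is shown because it is shared with Tap1. The starts of these genes in RefSeq are 226 bp apart and point away from each other, whereas in GENCODE the outermost exons overlap. The RefSeq promoter windows of 300 bases, 250 before and 50 after the start, have 275 bases in common. The promoters of Psmb8, Psme1 and Psmd4 are shown beside it for the letters of interferon-response motifs that they hold. In Psmb9 the capitals mark the 225 bases between the starts of Psmb9 and Tap1. In Psmb8 they mark a match to the interferon-gamma motif GAS (TTCNNNGAA), and in Psme1 and Psmd4 a match, on the opposite strand, to the interferon motif ISRE (GAAA, any 2 bases, GAAA). Sequences are RefSeq's, on GRCm38.p6, written along the strand of the gene.
Psmb9, chr17:34187281-34187580, minus strand: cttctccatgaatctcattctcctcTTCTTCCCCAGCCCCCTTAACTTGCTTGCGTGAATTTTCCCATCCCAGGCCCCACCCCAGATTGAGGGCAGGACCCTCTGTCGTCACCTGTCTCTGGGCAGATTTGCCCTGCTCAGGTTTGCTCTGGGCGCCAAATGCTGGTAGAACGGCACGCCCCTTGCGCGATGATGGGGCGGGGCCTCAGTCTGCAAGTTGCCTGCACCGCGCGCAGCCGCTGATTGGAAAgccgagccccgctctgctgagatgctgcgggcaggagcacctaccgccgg
Psmb8, chr17:34197945-34198244, plus strand: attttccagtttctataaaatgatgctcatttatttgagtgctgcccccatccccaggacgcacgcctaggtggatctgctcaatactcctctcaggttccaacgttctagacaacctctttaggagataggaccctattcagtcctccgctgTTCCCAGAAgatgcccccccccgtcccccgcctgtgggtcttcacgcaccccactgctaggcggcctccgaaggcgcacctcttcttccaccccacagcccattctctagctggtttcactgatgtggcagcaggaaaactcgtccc
Psme1, chr14:55578244-55578543, plus strand: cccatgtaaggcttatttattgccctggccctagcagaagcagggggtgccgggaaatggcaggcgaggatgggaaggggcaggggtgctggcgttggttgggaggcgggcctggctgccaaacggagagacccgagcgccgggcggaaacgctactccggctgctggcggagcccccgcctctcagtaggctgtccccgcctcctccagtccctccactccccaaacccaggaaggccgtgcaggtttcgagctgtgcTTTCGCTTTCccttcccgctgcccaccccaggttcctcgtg
Psmd4, chr3:95042565-95042864, minus strand: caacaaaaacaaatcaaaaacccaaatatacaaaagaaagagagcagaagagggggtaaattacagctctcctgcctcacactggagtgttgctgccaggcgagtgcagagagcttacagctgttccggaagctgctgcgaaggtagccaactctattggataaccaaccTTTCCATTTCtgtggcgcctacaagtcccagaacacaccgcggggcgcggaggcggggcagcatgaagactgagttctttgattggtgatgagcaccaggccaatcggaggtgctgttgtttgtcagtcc

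Psmb8 had 187, 188 and 236 CPM in libraries labelled RhoA knockout, against 100.2, 96.7 and 99.2 CPM in controls. The groups lay far apart (1.05 ± 0.12 SE, 2.06-fold, edgeR adjusted p = 1.7e-05), and the call held in all 18 settings. Psmb9 had 461, 486 and 476 counts, or 5.62, 5.44 and 6.26 CPM, in libraries labelled RhoA knockout, against 325, 206 and 249 counts, or 4.21, 3.52 and 4.22 CPM, in controls. Every library labelled RhoA knockout was above every control, but the adjusted p was 0.0468 and rose to 0.058 to 0.149 when any single library was left out (0.53 ± 0.20 SE). Tap1, its divergent neighbour, had 8.24, 5.91 and 7.86 CPM under the knockout label, against 27.5, 30.3 and 27.8 CPM in controls, and was lower (-1.96 ± 0.15 SE, adjusted p = 1.01e-06). Annotated exons of Psmb9 and Tap1 share 212 bp on opposite strands, so some reads of Tap1 could be among the counts of Psmb9 if strand was not used. Psmb10, on chromosome 8, had 25.5, 24.6 and 31.7 CPM in libraries labelled RhoA knockout, against 29.9, 31.1 and 34.2 CPM in controls, and the groups overlapped (-0.22 ± 0.13 SE, adjusted p = 0.194).

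**Figure D5:**
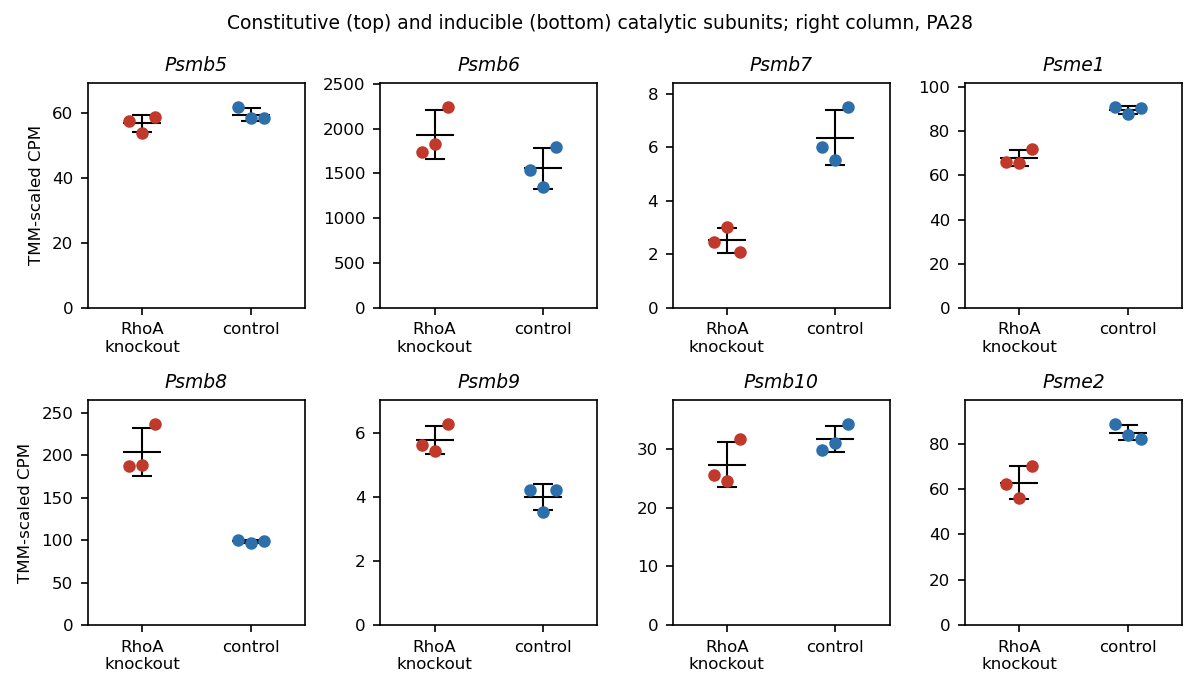
Points are TMM-scaled CPM (y axis, from 0) in the 3 libraries labelled RhoA knockout (left) and the 3 control libraries (right) for each constitutive cutting subunit above the inducible one that replaces it, with the PA28 genes in the right column; long bars are means and whiskers SD. Psmb8 and Psmb9 are above and Psmb7, Psme1 and Psme2 are below their controls in all 3 libraries, though the call of Psmb9 depended on the settings.

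Within a library, the ratio of an inducible subunit to the one it replaces does not depend on library scaling. The trend over exon length stays in it. Psmb8 over Psmb5, in counts per kb, was 0.860, 0.931 and 1.07 in libraries labelled RhoA knockout, against 0.431, 0.440 and 0.451 in controls, a 2.15-fold difference (1.11 on the log2 scale). With the counts of the pseudogene Gm3375 added to Psmb5, the log2 difference was 0.96. Psmb10 over Psmb7 was 20.7, 16.4 and 30.4 under the knockout label, against 9.95, 11.3 and 9.15 in controls, 2.16-fold, with the low counts of Psmb7 below the line. Psmb9 over Psmb6 was 0.00166, 0.00152 and 0.00143 in libraries labelled RhoA knockout, against 0.00140, 0.00134 and 0.00120 in controls, 1.17-fold. None of the 3 ratios overlapped between groups. Each gave p = 0.1 in a two-sided exact permutation test, the smallest that 3 against 3 libraries allow, so none could pass 0.05, and adjustment over the 3 would leave 0.1. Under TMM scaling the called gene of the first pair was the inducible Psmb8, and of the pair of Psmb10 and Psmb7 the constitutive Psmb7. With the offset for exon length the log2 fold changes were 0.97 for Psmb8 and -0.38 for Psmb5, both called. They were -0.56 for Psmb10 and -1.39 for Psmb7, both called, and 0.50 for Psmb9 and -0.001 for Psmb6, neither called.

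The PA28 genes, neighbours on chromosome 14, fell together. Psme1 (55578123 to 55581529, plus strand) had 66.0, 65.5 and 72.1 CPM in libraries labelled RhoA knockout, against 91.0, 87.7 and 90.6 CPM in controls (-0.40 ± 0.10 SE, edgeR adjusted p = 0.00512). Psme2 (55587441 to 55591113, minus strand) had 62.2, 56.1 and 70.3 CPM under the knockout label, against 88.6, 83.9 and 82.2 CPM in controls (-0.43 ± 0.11 SE, adjusted p = 0.00691). Neither gene's groups overlapped. Psme2 is uncertain, since Psme2b, 99.4% identical, held 17.3 to 31.1% of its count, and with these added its log2 fold change was -0.39 and still called. Scaling by library totals moved the median of all genes to 0.15 and the share of calls that are higher to 59.8% from 48.5%. Psme1 and Psme2 were then at -0.23 and -0.27 and no longer called (adjusted p = 0.0868 and 0.0649), which is still below that median.

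Of 7 assembly factors, which help build proteasomes, 3 were higher and 4 not called, and their median log2 fold change was 0.45. Of all genes tested, 21.0% were called higher. With the offset for exon length 2 of the 7 were higher, with a median of 0.31. Psmd9, a chaperone of Psmc3 and Psmc6, had 16.6, 16.2 and 19.2 CPM in libraries labelled RhoA knockout, against 10.8, 11.3 and 9.87 CPM in controls (0.70 ± 0.14 SE, edgeR adjusted p = 0.00131). Psmd10, a chaperone of Psmc4 with the highest level per kb of this group, had 103, 108 and 111 CPM under the knockout label, against 81.2, 75.3 and 79.2 CPM in controls (0.45 ± 0.10 SE, adjusted p = 0.0025). Its call was lost with the offset for exon length, at 0.11. Psmg4, which with Psmg3 helps form the alpha ring, was higher (0.60), a call also lost with that offset (0.31). Psmg3 (0.60), Psmg1 (0.40), Psmd5 (0.18) and Psmg2 (0.13) were not called, though Psmd5 was higher with the offset (0.51).

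Of the other regulators, Psme3, a nuclear relative of PA28, and Psme4, the large activator PA200, were lower and the inhibitor Psmf1 was not called. Psme4 had 4.11, 3.62 and 2.76 CPM in libraries labelled RhoA knockout, against 5.78, 6.95 and 4.85 CPM in controls (-0.74 ± 0.23 SE, edgeR adjusted p = 0.0216). This call was lost without replicate 3 under the knockout label (0.0739) and without control replicates 1 (0.0555) or 2 (0.0831), and with the offset for exon length (0.245). Psme3, at -0.55 (0.0169), was lost without replicate 3 under the knockout label (0.051) and without control replicate 2 (0.0603), and both calls were lost when scaling by library totals (0.18 for Psme3 and 0.145 for Psme4). Psmf1 had 23.6, 25.2 and 33.6 CPM in libraries labelled RhoA knockout, against 27.8, 24.4 and 30.1 CPM in controls (0.00 ± 0.15 SE, adjusted p = 0.995). Of the members set apart from these roles, Psmc3ip was higher (1.68), and the germ-cell subunit Psma8 (0.10) and Psme2b (-0.19) were not called. Psmc3ip shares 385 bp of exon with Mlx on the opposite strand and is uncertain for that reason.

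Proteasome genes outside the name rule were measured too. Of 9, 3 were higher and 3 lower, where 21.0% and 22.3% of all genes tested were so called. Their median log2 fold change was -0.17, and 0.20 with the offset for exon length, where 3 were higher and 2 lower. The cap's ubiquitin receptor Adrm1 (0.85) and its partner, the deubiquitinase Uchl5 (0.94), were higher. Uchl5 had 221, 213 and 246 CPM in libraries labelled RhoA knockout, against 127, 122 and 106 CPM in controls (0.94 ± 0.11 SE, edgeR adjusted p = 3.27e-05). The core assembly factor Pomp, named here after its value was seen, was higher too (0.51). Ecpas, an adaptor of the proteasome (-1.38), and Akirin2, which brings proteasomes into the nucleus (-1.73), were lower. The ubiquitin ligase Ube3c, also chosen after its value was seen, was lower (-0.68) and lost that call with the offset for exon length (-0.22).

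Of 7 listed genes that control transcription of proteasome subunits, 2 were higher and 2 lower. That is near the 21.0% and 22.3% of all genes tested. With the offset for exon length 2 were higher and 1 lower. Nfe2l1, which raises subunit genes when proteasomes are short, had 7.01, 7.26 and 4.82 CPM in libraries labelled RhoA knockout, against 18.7, 21.1 and 20.1 CPM in controls (-1.65 ± 0.17 SE, edgeR adjusted p = 1.05e-05). Its activating protease Ddi2 was lower as well (-1.16), but not with the offset for exon length (-0.71, adjusted p = 0.0542). Nfe2l2, a related factor of the oxidative stress response, had 29.7, 24.2 and 29.5 CPM under the knockout label, against 10.9, 12.3 and 11.2 CPM in controls (1.28 ± 0.13 SE, adjusted p = 9.49e-06). Nfyc, a subunit of the CCAAT-binding factor, was higher (0.67), and the other 3 were not called.

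Upstream of the proteasome, 3 of 6 genes for ubiquitin and its activation were lower and 3 were not called. Of all genes tested, 22.3% were called lower. With the offset for exon length 3 of these 6 were lower as well. The activating enzymes Uba1 (-1.23) and Uba6 (-1.76) were among those that were lower. Uba1 had 30.5, 33.5 and 27.2 CPM in libraries labelled RhoA knockout, against 71.8, 74.5 and 67.2 CPM in controls. Of 10 measured genes for shuttling and extraction of substrates, 5 were lower and 5 not called, beside the same 22.3% of all genes. With the offset for exon length 5 were lower and 1 higher. Lowest in p were Zfand5 (-1.58), Zfand2a (-1.62), Ubqln1 (-1.20) and Nploc4 (-0.98), all lower. Vcp, the extraction ATPase, was not called (-0.03), and is named after its value was seen.

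Of 11 listed genes that induce the immunoproteasome, 7 were lower and 2 higher, where 22.3% and 21.0% of all genes tested were so called. With the offset for exon length 5 were lower and 2 higher, and the median log2 fold change was -0.39 in place of -0.61. Jak1 and Irf9, named after their values were seen, were those no longer called (adjusted p = 0.0812 and 0.0528). Stat2 (-3.11), which carries interferon signals to the nucleus, and Irf8 (-2.12), which binds interferon-response genes, were lower. Irf8 had 11.5, 12.8 and 10.2 CPM in libraries labelled RhoA knockout, against 48.4, 51.2 and 49.9 CPM in controls, far apart (-2.12 ± 0.12 SE, edgeR adjusted p = 1.17e-07). The interferon-gamma receptor chain Ifngr1 was higher (1.90), with 26.7, 26.2 and 24.8 CPM under the knockout label, against 7.20, 6.29 and 7.31 CPM in controls. Irf1, named after its value was seen, was not called (0.19, adjusted p = 0.644). Psmb8 rose and Psme1 and Psme2 fell beside these values.

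Of 10 peptide loading genes 2 were higher and 3 lower, which is near the 21.0% and 22.3% of all genes tested. The thiol oxidoreductase Pdia3 was higher (1.68), with 882, 886 and 1127 CPM in libraries labelled RhoA knockout, against 307, 299 and 299.6 CPM in controls. The MHC class I gene H2-D1 was higher (0.79). It is uncertain because another class I gene, H2-K1, 95.2% identical over 251 bp, held 12.6 to 19.8% of its count. Besides Tap1, the loading factor Tapbp was lower (-0.38), a call lost without control replicate 1 (0.0534) and by library totals (0.218).

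Promoter windows were matched for 41 of the 49 reported genes and set beside 32851 windows of all genes, with motifs read on both strands. The antioxidant response element (ARE, TGANNNNGC), to which Nfe2l1 and Nfe2l2 bind, matched in 56.1% of the 41 and 41.3% of all windows. The GC box (GGGCGG) matched in 56.1% and 35.7%, and the CCAAT box (CCAAT) in 34.1% and 37.4%. ISRE matched in 5 of the 41, or 12.2%, against 3.44% of all windows. These were Psmb3, Psmd4, Psmd9 and Psmg4, which were higher, and Psme1, which was lower. GAS matched in 3 of the 41, or 7.32%, against 8.30% of all windows. These were Psmb8 and Psmd2, which were higher, and Psmg1, which was not called. Of Psmb8, Psmb9 and Psmb10, 1 matched GAS and 0 matched ISRE. Members with more than 1 window count once, which gives them more chance of a match than a single window, and per gene over all genes the shares were 45.0% for ARE, 38.2% for the GC box, 41.1% for CCAAT, 3.99% for ISRE and 9.55% for GAS. A match is a run of letters and not a binding site.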

How the data were processed

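Counts were analysed for 6 RNA-seq libraries of RAW264.7 cells, 3 labelled RhoA knockout and 3 control. The deposited values are whole-number counts per gene for 55487 Ensembl IDs, not normalized by the authors. RNA was extracted with Trizol and prepared with a TruSeq kit, per the labels' protocols, and per the submitters' processing notes the build was GRCm38. Which aligner and counter were used, whether strand was used and how reads with several matches were treated is not given in the sources used here. Each of the table's 6 value columns carries the name of a sample, and 0 columns were left out.

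Symbols, positions and exons come from GENCODE M21 on GRCm38, which held 55227 of the IDs, 54435 of them with their version. Members and lists were chosen with earlier results of these data known. All genes were fitted together in edgeR 4.0.16 (R 4.3.3) with TMM factors, filterByExpr, robust dispersions and the quasi-likelihood test, and p-values were adjusted over 12930 genes by Benjamini-Hochberg, with a threshold of 0.05. Replicates varied by a common biological coefficient of 0.32. A standard error is the size of the log2 fold change over the root of its F statistic. CPM are TMM-scaled unless said otherwise, and 3 counts, the floor used for a count of 0, equal 0.037 to 0.050 CPM by library and cover counting error only. Exon length is the union of annotated exons, used for CPM per kb, and the length offset is a lowess trend (span 0.3) fitted per library. Ratios within a library were compared by exact permutation.

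Copies were sought with blastn 2.17.0 at 95% identity over at least 200 bp, and counted where they held 10% or more of a member's count. Values in every library are given for the cutting subunits and PA28, for Rhoa, and per role, with assembly factors, Psme3, Psme4 and Psmf1 taken as 1 group, for the members with the highest and lowest log2 fold change and the highest level per kb. From each pathway list up to 4 called genes with the smallest p are named. Genes named beyond this are said to be so, and the results of some listed genes are not reported here. The fit was tested on simulated data. The alternatives were RLE factors, library totals, DESeq2 1.42.0, no filter, a CPM filter, a replicate block, a length offset with and without that block, leaving out the 10 most abundant genes, dividing counts by 4 and leaving out each library. Adding the counts of copies, and leaving out replicate 3 of both groups, were chosen after seeing the data.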

Additional observations from a re-analysis of the deposited data

How the results depend on the processing

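Over 18 alternative settings, 830 of 881 recomputed fold changes of members kept their side of the threshold, 29 lost a call, 22 gained one, and 0 values that were called, as reported or in the alternative, changed sign. Values that were not called in either did so 28 times, in 11 genes (Psma5, Psma8, Psmb1, Psmb4, Psmb5, Psmb6, Psmd1, Psmd8, Psmd11, Psmf1 and Psmg2), and then lay between -0.20 and 0.22. The same call was made in every setting for 22 of the 26 higher members, 2 of the 6 lower ones (Psmb7 and Psmd3) and 8 of the 17 not called. The counts that moved were small. By library totals, the lower calls were 0 in the immunoproteasome and PA28 and 0 in the assembly factors, inhibitor and other activators, against 2 and 2 as reported. Without a filter the higher immunoproteasome calls were 1, against 2. With the length offset, with or without the replicate block, 4 core subunits were lower, 1 immunoproteasome gene was higher and 1 of the assembly group was lower. Without replicate 3 of both groups these were 2, 1 and 1. Leaving out single libraries gave 1 higher immunoproteasome call each time and 0 to 2 lower calls in the assembly group, and a log2 fold change of Rhoa of 0.34 to 0.45. Deviations of same-numbered libraries from their group means correlated at -0.01, 0.03 and 0.01, which shows no pairing by replicate number. With 3 libraries per group this cannot exclude pairing, and replicate 3 stood apart in both groups. With the replicate block, 26 members were higher and 6 lower, with 1 higher immunoproteasome call since Psmb9 was lost (adjusted p = 0.068) and Psmb6 became higher (0.0261). The 3 ratios gave p = 0.25 in an exact sign-flip permutation within same-numbered pairs, the smallest that 3 pairs allow. Beyond what the settings' own construction shows, the cause of these changes was not tested. Depth limits Psma8, Psmb7, Psmb9, Psmg1, Psmg3 and Psme4 most, with at most 486 counts in any library.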

Other observations

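Levels per kb spread widely among subunits that are built into the same particle. Among the 3 constitutive cutting subunits, Psmb6 had 1033 CPM per kb in libraries labelled RhoA knockout and 832 in controls, Psmb5, without the counts of its pseudogene, had 63.2 and 66.2, and Psmb7 had 0.74 and 1.86. Among the inducible ones, Psmb8 had 60.3 CPM per kb under the knockout label and 29.2 in controls, Psmb10 had 16.0 and 18.6, and Psmb9 had 1.58 and 1.09. In the order of levels, Psmc3 ranked 5 of 49 in libraries labelled RhoA knockout and 9 in controls, Psmd4 ranked 9 and 18, and Psme1 ranked 25 and 17. No test was run on these ranks.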
